A study of Mus musculus with 18 samples.

Results

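The TRIM family genes of mouse bone marrow macrophages are described here, in mock-treated cells and in cells given lipopolysaccharide or apoptotic bodies. Members were the rows of the gene table whose symbol is Trim followed by digits and at most 1 lower-case letter. The rule found 60 members of 16909 genes and used no measured value. Of these, 46 passed the filter on low counts and were tested, and 14 were not. TRIM genes that carry other symbols, such as Pml, are not members and are given only beside them.

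The 18 libraries are poly(A) RNA of cells labelled bone marrow macrophage, in 4 groups. Con is the mock group (n = 3) and LPS (n = 5) is the positive control for inflammation, with lipopolysaccharide, a cell wall component of Gram-negative bacteria that engages Toll-like receptor 4. STSABs and UVABs (n = 5 each) are the groups given apoptotic bodies, the fragments shed by dying cells, from a source that the labels write as hucMSC. The bodies were induced with STS in one group and with UV in the other, and both are named as anti-inflammatory treatments. UVABs holds 3 libraries with that spelling and 2 spelled UVAB. Mouse strain, sex and age, doses, times, whether the AB groups also received LPS, and whether replicates were separate cultures or animals were not given in the sources used here. Each p-value therefore reflects how these libraries vary, and that variation may be technical.

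TRIM proteins share an N-terminal tripartite motif of a RING finger, B-box zinc fingers and a coiled coil, and most act as E3 ubiquitin ligases, with the RING recruiting an E2 enzyme that carries ubiquitin. The C-terminal domain sorts them: PRY-SPRY in most, NHL repeats, a PHD finger with a bromodomain, a COS box or other modules in the rest. In macrophages the family is known for members that type I interferon induces, which bind viral components or tune the RIG-I, cGAS-STING and NF-kB pathways.

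To show the sequence around the start of members whose RNA changed, RefSeq promoter windows (build GRCm38.p6, 250 bases before to 50 after each annotated start) were searched for the core of the interferon-stimulated response element, GAAANNGAA, on both strands. RefSeq windows were matched by symbol for 46 of the 60 members. The core was present in 9 of the 15 matched members that were higher in LPS than in Con, in 2 of the 14 that were lower, in 1 of the 5 that did not pass and in 0 of the 12 not tested. Those 9 are not independent promoters, since Trim30a, Trim30d, Trim12a, Trim12c, Trim34a and Trim34b among them are relatives in the chromosome 7 cluster. Over all 27025 genes with such windows, expressed here or not, 9.76% held it in at least 1 of their windows. Printed here are stretches of 60 bases upstream of the start, on the strand of the gene and 5′ to 3′, for 7 members that show the range: pairs of relatives with near-identical windows, members that rose in LPS, and Trim7, which fell. Capitals mark the core, which in all 7 lies on the opposite strand, so that the letters shown are its reverse complement. The coordinates are of GRCm38.p6 and not of the build the authors used.
Trim30a (chr7:104465194-104465253, minus strand): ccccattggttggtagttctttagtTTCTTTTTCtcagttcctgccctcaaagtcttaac
Trim30d (chr7:104507855-104507914, minus strand): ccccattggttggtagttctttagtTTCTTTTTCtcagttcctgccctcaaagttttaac
Trim12c (chr7:104353350-104353409, minus strand): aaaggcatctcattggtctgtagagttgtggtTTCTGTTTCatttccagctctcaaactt
Trim5 (chr7:104288120-104288179, minus strand): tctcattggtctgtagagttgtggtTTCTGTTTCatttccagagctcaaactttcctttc
Trim25 (chr11:88999343-88999402, plus strand): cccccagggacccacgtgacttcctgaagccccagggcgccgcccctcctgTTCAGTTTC
Trim26 (chr17:36836962-36837021, plus strand): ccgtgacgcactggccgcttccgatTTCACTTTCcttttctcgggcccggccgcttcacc
Trim7 (chr11:48825998-48826057, plus strand): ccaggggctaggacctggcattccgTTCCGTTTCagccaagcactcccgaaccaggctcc

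The stretches of Trim30a and Trim30d, both of which rose in LPS, were identical at 59 of 60 bases. Those of Trim12c and Trim5 were identical at 51 of 53 aligned bases, although Trim12c rose in LPS and Trim5 did not pass the test. In Trim26 a second match overlaps the one shown, and Trim30a held another match just after a further annotated start. The matches in Trim21, Trim34a, Trim12a and Trim2 lay after the annotated start, and Trim34b held one 211 bases before it. Trim30c, the member with the largest fitted fold in LPS, had no match to this core in its window and 1 to the gamma-activated site TTCNNNGAA. The gamma-activated site was found in 5 of the 46 matched members (10.9%), against 9.55% of all genes, and the kappa B consensus in 1 of 46 (2.17%), against 5.14%. A match is a description of letters and no evidence that a factor binds there.

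The total of estimated counts in a library ran from 17588400 to 18675300. Levels are CPM, counts scaled to a common library size, which are not per length, so that values are compared within a gene only. Members together took 0.152% to 0.156% of the counts in Con, 0.351% to 0.374% in LPS, 0.293% to 0.333% in STSABs and 0.293% to 0.334% in UVABs. All 9 macrophage markers exceeded 1 CPM in every group, T and NK cell markers summed to at most 1.08 CPM and erythroid markers to at most 0.958 CPM in any library. Neutrophil and precursor markers were above 1 CPM in every group (7 of 7). Their sum was 819 to 1013 CPM in Con, 1228 to 1661 in LPS, 2150 to 3201 in STSABs and 2196 to 2717 in UVABs. The sum moved with the groups, and most of it was S100a8 and S100a9. The means of these genes were 269 and 445 CPM in Con and 545 and 664 in LPS. Mean Ltf alone fell from Con to LPS, from 165 to 103 CPM, while Mpo changed little. The part of these markers in the results was not tested. In bulk RNA, fewer cells of a type and less RNA per cell cannot be told apart. On the 46 tested members the first principal component, with 86.9% of the variance, parted Con from the rest, and the libraries numbered 2 of both AB groups had the lowest scores on the second (-1.78 in STSABs and -2.72 in UVABs).

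**Figure D1:**
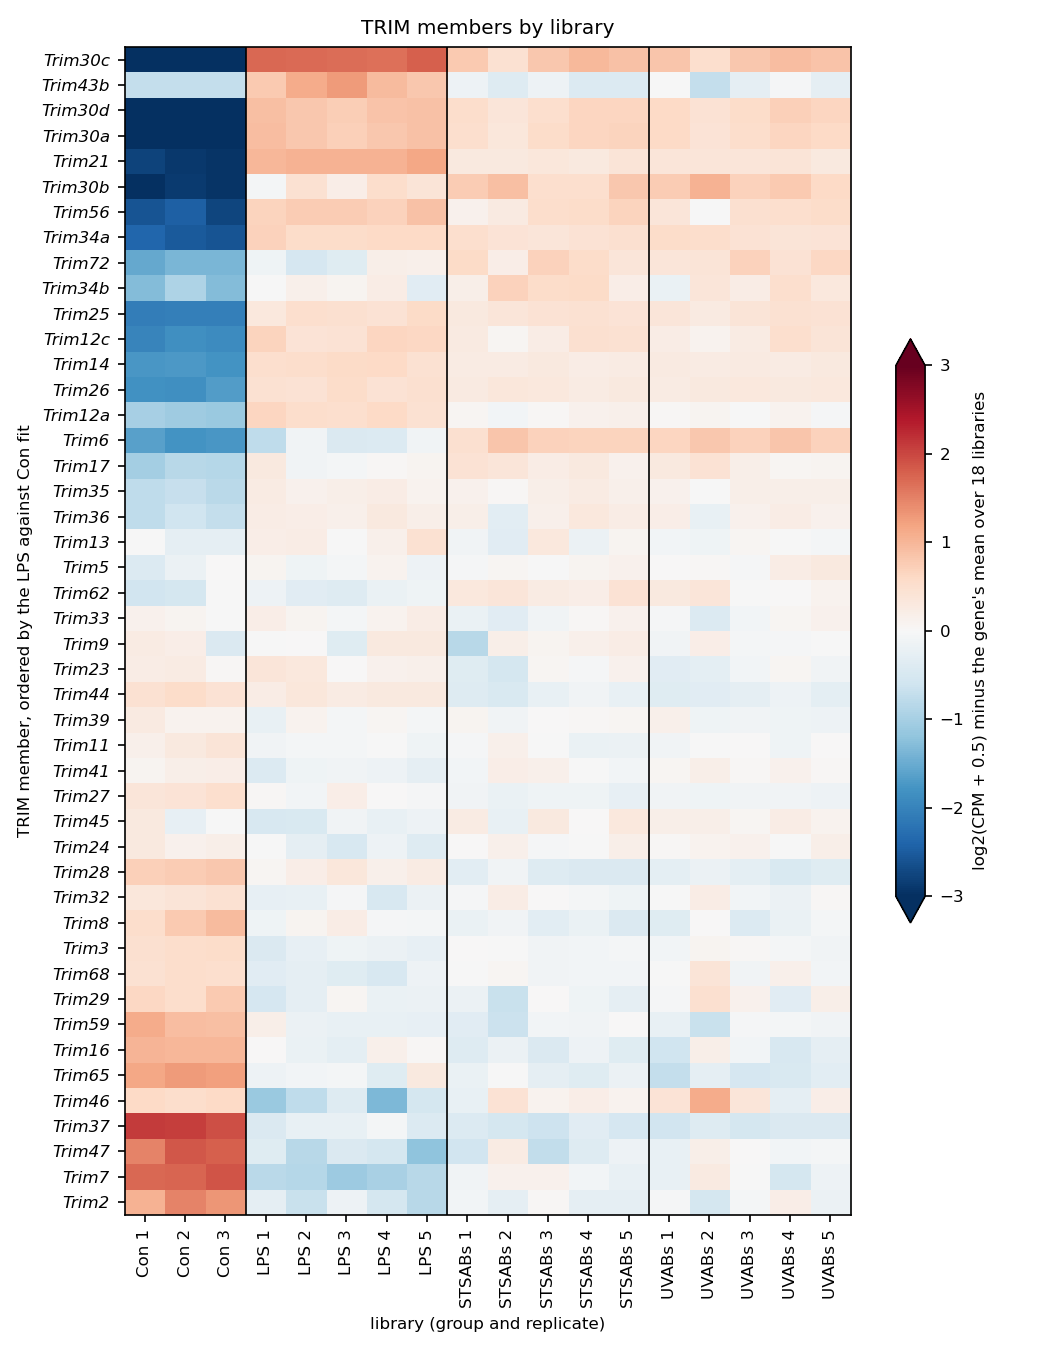
Heat map of the 46 tested members (rows, ordered by log2 fold change of LPS against Con) in the 18 libraries (columns), coloured by log2(CPM + 0.5) minus the mean of the gene over all libraries (colours end at 3 in either direction), with black lines between groups. The 3 Con libraries are low for the upper rows, led by Trim30c and Trim43b, and high for the lowest rows, Trim37, Trim47, Trim7 and Trim2, while STSABs and UVABs resemble each other in most rows. Trim43b passed the low-count filter through LPS alone, and Trim2 through Con alone.

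LPS against Con asks how the inflammatory stimulus changed the family. Interferon-linked members of the chromosome 7 cluster and several regulators of RIG-I, cGAS-STING and NF-kB signalling rose, by up to 194-fold for Trim30c, while Trim2, Trim7, Trim47 and Trim37 fell by 11.1-, 9.44-, 6.46- and 5.48-fold. The low-count filter favoured the fall of Trim2, which passed it through Con alone, and the rise of Trim43b, which passed it through LPS alone. Of the 46 tested members 20 were higher, 20 were lower and 6 did not pass, where 40.0% of all 12465 tested genes were higher and 43.0% lower. The share of members called, 43.5% in each direction, was near that of all genes, and the median log2 fold change was 0.04 over the members and -0.03 over all tested genes. Each change is a log2 fold change with its SE, taken from the quasi-likelihood fit of edgeR, where the SE is the size of the change over the square root of the F statistic, and a member rose or fell where its Benjamini-Hochberg adjusted p was under 0.05. With library totals in place of TMM factors, which average 1.51 in Con and 0.902 in LPS, the median of all genes moved by -0.74 and the counts of members became 18 higher and 27 lower. With upper-quartile scaling the median moved by -0.28, and 19 members were higher and 22 lower.

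**Figure D2:**
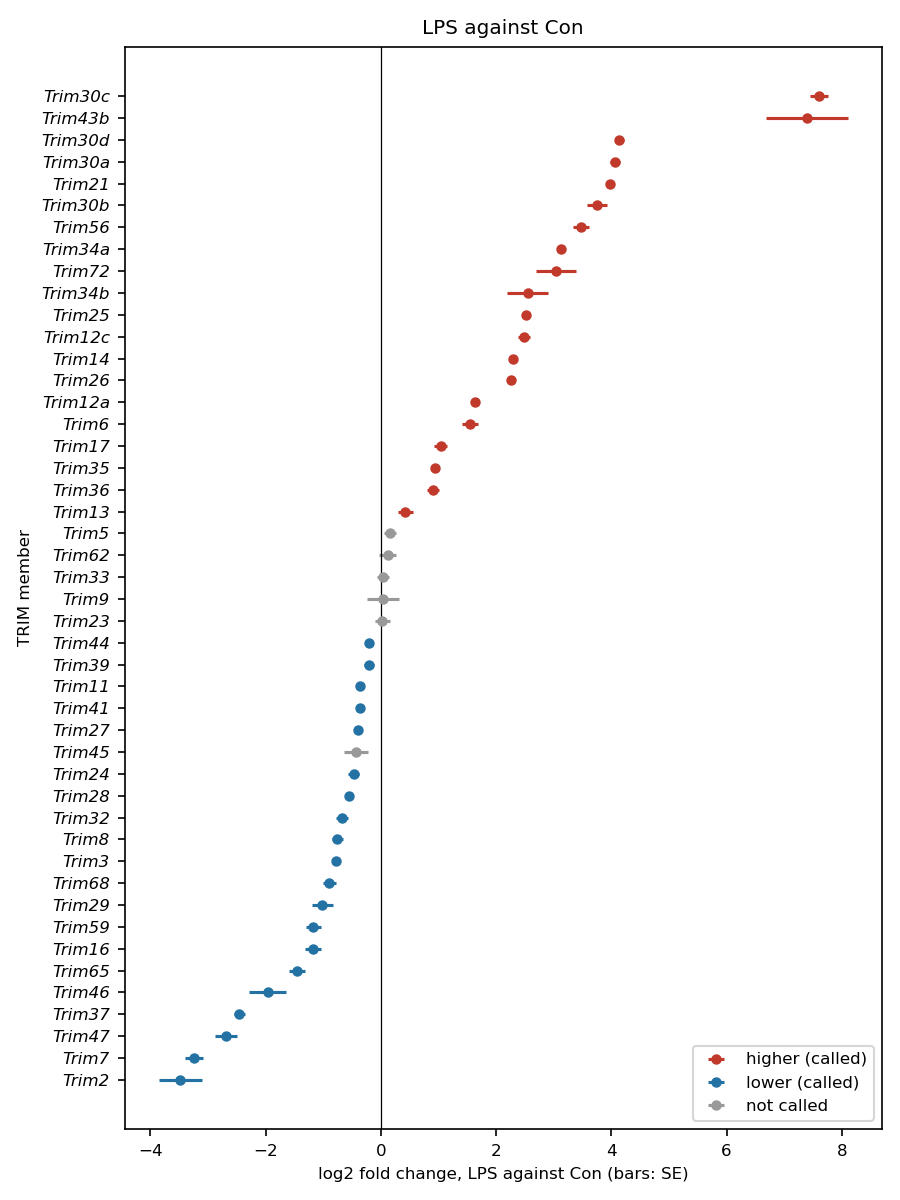
Log2 fold change of LPS against Con for each tested member (points, with bars of 1 SE), red where higher, blue where lower and grey where the test was not passed. Values run from -3.48 in Trim2 to 7.60 in Trim30c. The point of Trim43b is a fitted value against a group without counts. Trim43b passed the low-count filter through LPS alone, and Trim2 through Con alone.

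Of the 10 members in the chromosome 7 cluster (Trim30a to d, Trim12a, Trim12c, Trim5, Trim6, Trim34a and Trim34b), 9 rose in LPS and 1, Trim5, did not pass. Their median log2 fold change was 2.84, against -0.03 over all tested genes, of which 40.0% were higher and 43.0% lower. Trim30a restrains NF-kB signalling by promoting loss of Tab2 and Tab3, and its relatives Trim30b, Trim30c and Trim30d lie beside it. Trim30a was at 62.0, 53.5 and 56.1 CPM in Con, at 1024, 947, 885, 947 and 985 in LPS, at 759, 676, 787, 847 and 855 in STSABs and at 814, 714, 774, 844 and 819 in UVABs. Trim30d was at 25.2, 24.6 and 25.0 CPM in Con, at 457, 434, 412, 443 and 455 in LPS, at 355, 314, 349, 384 and 387 in STSABs and at 375, 335, 359.8, 401 and 387 in UVABs. Trim30c was at 1.59, 1.12 and 1.37 CPM in Con, at 270.0, 263, 257, 256 and 282 in LPS, at 140.0, 110.4, 142, 158 and 149.9 in STSABs and at 144, 114, 143, 155 and 146 in UVABs. In all 3 genes every LPS library lay above every AB library, and every AB library above every Con library. Trim30c rose by 7.60 ± 0.16 (edgeR quasi-likelihood, Benjamini-Hochberg adjusted p = 2.48e-21), Trim30d by 4.14 ± 0.08 and Trim30a by 4.06 ± 0.09. Trim30b was at 1.06, 1.28 and 1.19 CPM in Con, at 12.1, 17.4, 14.6, 18.3 and 16.6 in LPS, at 21.5, 23.7, 18.1, 18.1 and 22.3 in STSABs and at 21.7, 26.5, 20.7, 22.2 and 19.1 in UVABs. Trim30b rose by 3.75 ± 0.17 in LPS but was higher still in the AB groups, where UVABs lay above all LPS libraries and STSABs overlapped them.

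Trim34a and Trim34b are neighbours that share much transcript sequence and whose human relative binds retroviral capsids, so the split of reads between them is uncertain. Trim34a was at 15.9, 14.2 and 13.6 CPM in Con, at 137, 124, 125, 127 and 128 in LPS, at 120.0, 112, 109, 114 and 119 in STSABs and at 124, 121, 113, 111 and 113 in UVABs. Trim34b was at 0.109, 0.292 and 0.109 CPM in Con, at 0.980, 1.17, 1.07, 1.23 and 0.671 in LPS, at 1.19, 1.91, 1.68, 1.72 and 1.22 in STSABs and at 0.793, 1.43, 1.23, 1.63 and 1.37 in UVABs. Both rose in LPS, Trim34a by 3.14 ± 0.07 and the scarce Trim34b by 2.55 ± 0.36, with no overlap with Con. Trim12a and Trim12c are mouse relatives of Trim5, the gene whose primate form blocks retroviruses. Trim12c was at 23.2, 25.7 and 24.9 CPM in Con, at 149, 123, 126, 147 and 143 in LPS, at 112, 97.1, 109, 131 and 128 in STSABs and at 109.8, 101, 111, 132 and 122 in UVABs. Trim12a was at 25.4, 24.4 and 23.4 CPM in Con, at 80.9, 74.1, 73.5, 78.2 and 71.3 in LPS, at 53.9, 48.3, 52.6, 56.0 and 57.6 in STSABs and at 52.9, 54.7, 50.7, 55.7 and 50.5 in UVABs. Trim5 was at 6.48, 7.68 and 8.89 CPM in Con, at 9.31, 7.93, 8.38, 9.44 and 7.78 in LPS, at 8.53, 9.20, 8.67, 9.29 and 9.68 in STSABs and at 8.80, 9.02, 8.59, 10.3 and 10.9 in UVABs. Trim12c rose by 2.48 ± 0.11 and Trim12a by 1.63 ± 0.06, whereas for Trim5 the LPS libraries spanned part of the Con range and the change was 0.16 ± 0.10 (adjusted p = 0.162, edgeR quasi-likelihood with Benjamini-Hochberg). Without Con replicate 3 the change of Trim5 was 0.28 and passed, and with library totals it was -0.59. Trim6 was at 2.68, 2.35 and 2.42 CPM in Con, at 5.33, 8.60, 6.80, 6.96 and 8.72 in LPS, at 13.3, 17.1, 15.4, 15.1 and 15.1 in STSABs and at 14.9, 16.8, 15.4, 17.0 and 15.5 in UVABs. Trim6, a ligase that makes free ubiquitin chains for the kinase Ikbke, rose by 1.55 ± 0.14, and its AB libraries lay above all LPS libraries.

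Members listed as regulators of innate immune signalling also changed in LPS. Of 12 tested members of that list (Trim30a of the cluster above among them) 7 rose, 4 fell and 1 did not pass. That is 58.3% higher and 33.3% lower, against 40.0% and 43.0% of all tested genes, with a median log2 fold change of 1.35. Trim21 is the cytosolic antibody receptor and ligase, Trim56 acts on cGAS and STING, and Trim25 ubiquitinates RIG-I. Trim21 was at 12.6, 11.6 and 11.1 CPM in Con, at 179, 186, 186, 183 and 199 in LPS, at 109, 109.6, 112, 110.2 and 117 in STSABs and at 114, 114, 115, 117 and 109 in UVABs. Trim56 was at 5.32, 5.92 and 4.70 CPM in Con, at 55.2, 59.5, 59.3, 56.5 and 64.2 in LPS, at 38.1, 42.2, 50.4, 50.7 and 55.2 in STSABs and at 44.7, 34.5, 48.4, 49.4 and 51.2 in UVABs. Trim25 was at 128, 130.0 and 131 CPM in Con, at 676, 774, 749.8, 731 and 809 in LPS, at 664, 692, 727, 738 and 717 in STSABs and at 694, 658, 713, 747 and 733 in UVABs. Con was lowest by a wide gap in all 3 genes, and Trim21 rose by 3.98 ± 0.06 (edgeR quasi-likelihood, Benjamini-Hochberg adjusted p = 2.53e-23), Trim56 by 3.47 ± 0.14 and Trim25 by 2.53 ± 0.06. Trim14 lacks a RING and serves as an adaptor at Mavs, and Trim26 acts on the interferon pathway at Tbk1 and Irf3. Trim14 was at 46.8, 47.8 and 45.2 CPM in Con, at 225, 229, 235, 242 and 217 in LPS, at 188, 189, 194, 186 and 189 in STSABs and at 191, 189, 191, 187 and 195 in UVABs. Trim26 was at 36.6, 35.9 and 40.6 CPM in Con, at 179, 177, 192, 177 and 181 in LPS, at 158, 165, 163, 155 and 159 in STSABs and at 155, 160.3, 163, 159 and 162 in UVABs. Trim14 rose by 2.30 ± 0.05 and Trim26 by 2.27 ± 0.05, each with Con, AB and LPS libraries in 3 separate ranges. Trim13 was at 5.57, 4.60 and 4.62 CPM in Con, at 6.53, 6.69, 5.60, 6.35 and 7.95 in LPS, at 5.24, 4.39, 7.13, 4.98 and 6.05 in STSABs and at 5.29, 5.15, 5.94, 5.62 and 5.43 in UVABs. Trim13, a ligase anchored in the endoplasmic reticulum, rose by 0.43 ± 0.13 with TMM scaling, but was lower (-0.32) with library totals and did not pass with upper-quartile scaling (0.15).

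The 4 regulators that fell in LPS were Trim8, Trim27, Trim32 and Trim65. Trim65, a ligase for the RNA sensor Ifih1, fell the most of these. Trim65 was at 5.94, 6.53 and 6.33 CPM in Con, at 2.09, 2.24, 2.27, 1.74 and 3.07 in LPS, at 2.03, 2.37, 1.92, 1.75 and 2.06 in STSABs and at 1.27, 1.92, 1.54, 1.63 and 1.82 in UVABs. Trim8 was at 42.2, 50.7 and 57.0 CPM in Con, at 26.7, 31.1, 34.0, 28.6 and 28.0 in LPS, at 25.3, 27.1, 23.4, 25.5 and 21.4 in STSABs and at 22.5, 29.5, 21.8, 25.4 and 27.9 in UVABs. Trim27 was at 31.2, 32.2 and 34.7 CPM in Con, at 24.8, 23.0, 27.9, 24.6 and 23.8 in LPS, at 22.7, 21.0, 22.3, 22.0 and 20.3 in STSABs and at 22.6, 22.2, 22.7, 22.4 and 21.7 in UVABs. Trim65 changed by -1.46 ± 0.13, Trim8, an activator of the kinase Map3k7, by -0.75 ± 0.10 and Trim27, which restrains IkB kinases, by -0.40 ± 0.06, and no LPS library reached a Con library. Trim23, which carries an ARF domain and modifies Ikbkg, had 9.60 ± 0.837 CPM in Con and 9.80 ± 1.06 in LPS (SD, n = 3 and 5) and did not pass. It was 0.03 with TMM scaling and -0.71 with library totals. Trim38, which acts on Tab2 and Tab3, was not tested: its estimated counts were 2, 1 and 1 in Con, 0 in each LPS library, 1, 0, 2, 0 and 0 in STSABs, and 0, 0, 0, 0 and 1 in UVABs. At that depth no difference could be read.

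The largest falls in LPS were in members that are not on the list of innate regulators. Trim2 is a neuronal ligase with NHL repeats, Trim7 is a PRY-SPRY ligase that binds glycogenin, and Trim47 is a PRY-SPRY ligase. Trim2 was at 1.34, 1.99 and 1.74 CPM in Con, at 0.239, 0.0606, 0.306, 0.120 and 0 in LPS, at 0.348, 0.243, 0.419, 0.234 and 0.235 in STSABs and at 0.364, 0.120, 0.356, 0.524 and 0.294 in UVABs. Trim7 was at 8.18, 8.41 and 9.33 CPM in Con, at 1.02, 0.969, 0.735, 0.840 and 0.982 in LPS, at 1.97, 2.37, 2.40, 1.99 and 1.76 in STSABs and at 1.76, 2.69, 2.14, 1.34 and 1.88 in UVABs. Trim47 was at 8.65, 11.4 and 10.8 CPM in Con, at 2.04, 1.33, 1.90, 1.74 and 0.921 in LPS, at 1.68, 3.34, 1.44, 1.99 and 2.41 in STSABs and at 2.30, 3.17, 2.79, 2.56 and 2.64 in UVABs. In each of them all LPS libraries were below all Con libraries. The changes were -3.48 ± 0.37 for Trim2 (edgeR quasi-likelihood, Benjamini-Hochberg adjusted p = 1.48e-08), -3.24 ± 0.16 for Trim7 and -2.69 ± 0.19 for Trim47. Of these, Trim2 passed the low-count filter through its Con libraries alone, which favours a fall. Trim37, which carries a MATH domain and limits centriole assembly, and Trim46, which bundles microtubules in axons, also fell. Trim37 was at 19.9, 19.5 and 17.6 CPM in Con, at 2.99, 3.57, 3.55, 4.08 and 3.07 in LPS, at 3.07, 2.80, 2.58, 3.27 and 2.82 in STSABs and at 2.67, 3.11, 2.79, 3.03 and 3.00 in UVABs. Trim46 was at 2.35, 2.20 and 2.31 CPM in Con, at 0.359, 0.606, 0.919, 0.240 and 0.798 in LPS, at 1.10, 2.01, 1.5, 1.64 and 1.53 in STSABs and at 2.00, 3.53, 1.90, 1.05 and 1.64 in UVABs. Their changes were -2.45 ± 0.09 and -1.96 ± 0.32, again with no overlap between LPS and Con.

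All 3 tested NHL-repeat members fell in LPS, with a median of -0.78, in a comparison where 43.0% of all tested genes were lower. One of the 3, Trim2, passed the low-count filter through its Con libraries alone. Trim3 was at 23.2, 23.9 and 24.1 CPM in Con, at 12.0, 13.8, 15.1, 14.5 and 13.8 in LPS, at 16.6, 16.2, 15.3, 15.6 and 15.7 in STSABs and at 15.4, 17.4, 16.9, 15.8 and 15.3 in UVABs. Trim32 was at 6.44, 6.64 and 7.05 CPM in Con, at 4.13, 4.24, 4.90, 3.42 and 4.36 in LPS, at 4.87, 5.96, 5.03, 4.74 and 4.52 in STSABs and at 4.91, 5.87, 4.69, 4.37 and 5.17 in UVABs. Besides Trim2, these were Trim3, a neuronal ligase, with -0.78 ± 0.07, and Trim32, which ubiquitinates Sting1 and is mutated in a limb-girdle muscular dystrophy, with -0.67 ± 0.11. Among members with a PHD finger and bromodomain, which act on chromatin, Trim24 and Trim28 fell and Trim33 did not pass, against the same 43.0% of all tested genes. Trim28 was at 93.0, 96.1 and 99.9 CPM in Con, at 59.6, 65.9, 71.6, 63.5 and 67.0 in LPS, at 45.7, 52.5, 43.1, 41.6 and 42.1 in STSABs and at 46.5, 50.6, 46.3, 41.5 and 43.8 in UVABs. Trim24 was at 14.6, 13.0 and 13.3 CPM in Con, at 11.7, 9.63, 8.33, 10.6 and 8.84 in LPS, at 11.9, 13.2, 11.6, 11.6 and 13.4 in STSABs and at 12.1, 12.6, 12.8, 11.6 and 13.3 in UVABs. Trim33 was at 37.3, 36.1 and 33.7 CPM in Con, at 39.1, 35.9, 32.7, 36.6 and 39.3 in LPS, at 29.5, 26.7, 31.5, 34.9 and 37.3 in STSABs and at 33.1, 25.4, 31.7, 35.4 and 37.1 in UVABs. Trim28, the co-repressor of KRAB zinc finger proteins, changed by -0.56 ± 0.07 and Trim24 by -0.47 ± 0.09. For Trim33, a regulator of Smad signalling, the LPS and Con ranges overlapped and the change was 0.04 ± 0.10, against -0.24 with upper-quartile scaling and -0.70 with library totals.

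Of the 4 tested members without a RING, Trim14 rose and Trim16, Trim29 and Trim44 fell, where 40.0% of all tested genes were higher and 43.0% lower. Trim16 was at 6.66, 6.57 and 6.54 CPM in Con, at 3.05, 2.54, 2.39, 3.42 and 3.13 in LPS, at 2.20, 2.61, 2.10, 2.69 and 2.23 in STSABs and at 1.82, 3.47, 2.85, 2.04 and 2.41 in UVABs. Trim44 was at 53.0, 56.2 and 51.8 CPM in Con, at 44.4, 48.8, 45.4, 47.1 and 47.2 in LPS, at 29.2, 27.9, 32.6, 35.3 and 32.9 in STSABs and at 29.5, 30.1, 31.5, 34.4 and 31.2 in UVABs. Trim16, known from the response to damaged lysosomes, changed by -1.18 ± 0.14 and Trim44, which stabilises Mavs, by -0.20 ± 0.07. Without Con replicate 2 the fall of Trim44 was -0.17 and missed the threshold (adjusted p = 0.0502, edgeR quasi-likelihood with Benjamini-Hochberg). Trim59 was at 17.3, 15.1 and 14.9 CPM in Con, at 8.74, 6.73, 6.56, 6.60 and 6.38 in LPS, at 5.97, 4.80, 7.31, 7.13 and 7.81 in STSABs and at 6.55, 4.67, 7.54, 7.45 and 7.17 in UVABs. The membrane-anchored Trim59 fell by 1.17 ± 0.13 on the log2 scale, with all LPS libraries below all Con libraries. Smaller falls in members named here by fold change only were -1.02 in Trim29, -0.89 in Trim68, -0.36 in Trim11, -0.36 in Trim41 and -0.20 in Trim39. The fall of Trim39 did not pass without Con replicate 1 (-0.14) or LPS replicate 1 (-0.16).

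Trim35, a PRY-SPRY ligase, rose by 0.93 ± 0.06, from 83.0 ± 3.43 CPM in Con to 159 ± 6.43 in LPS (SD, n = 3 and 5). Trim36, which carries a COS box, rose by 0.91 ± 0.11, and the change was 0.16 and not called with library totals. Trim17 was at 3.13, 3.66 and 3.60 CPM in Con, at 8.52, 6.32, 6.57, 7.02 and 7.24 in LPS, at 9.43, 8.93, 8.05, 8.59 and 7.52 in STSABs and at 8.54, 9.40, 7.82, 7.17 and 7.29 in UVABs. Trim72 was at 0.0724, 0.144 and 0.145 CPM in Con, at 1.02, 0.666, 0.797, 1.38 and 1.35 in LPS, at 1.97, 1.40, 2.16, 1.93 and 1.64 in STSABs and at 1.64, 1.68, 2.20, 1.75 and 2.06 in UVABs. Trim17, a PRY-SPRY ligase, rose by 1.04 ± 0.12 and Trim72, a membrane repair protein of muscle, by 3.04 ± 0.35, the latter from 2 to 4 counts per Con library. Trim62 was at 2.53, 2.64 and 3.94 CPM in Con, at 3.53, 3.03, 2.94, 3.42 and 3.62 in LPS, at 5.10, 5.29, 4.85, 4.62 and 5.52 in STSABs and at 4.97, 5.27, 3.98, 4.02 and 4.35 in UVABs. Trim9 was at 1.46, 1.38 and 0.706 CPM in Con, at 1.12, 1.14, 0.782, 1.5 and 1.5 in LPS, at 0.413, 1.34, 1.24, 1.32 and 1.42 in STSABs and at 1.03, 1.37, 1.06, 1.09 and 1.13 in UVABs. Trim62, a ligase for Card9, and Trim9, a neuronal ligase, overlapped between LPS and Con, with changes of 0.12 ± 0.15 and 0.04 ± 0.28. With library totals these were -0.62 and -0.70, and Trim62 passed without Con replicate 3 (0.36). Trim45, the member with a filamin repeat, had -0.43 ± 0.21 and missed the threshold (adjusted p = 0.0565, edgeR quasi-likelihood with Benjamini-Hochberg). It passed without Con replicate 2, LPS replicate 3, LPS replicate 5 or STSABs replicate 2, with changes of -0.59, -0.51, -0.49 and -0.44, and with upper-quartile scaling (-0.71) or library totals (-1.18).

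The Trim43 genes, known from the early embryo, were near the limit of detection. Trim43b was at 0, 0 and 0 CPM in Con, at 0.897, 1.27, 1.47, 1.08 and 0.918 in LPS, at 0.232, 0.122, 0.240, 0.117 and 0.117 in STSABs and at 0.303, 0, 0.178, 0.291 and 0.176 in UVABs. Trim43b had 0 estimated counts in Con and 92.9 over the LPS group, and was at least 31.2-fold higher in LPS, with the Con group set to a floor of 3 counts in all. Since Trim43b passed the low-count filter through its LPS libraries alone, the filter favoured this rise. Trim43c, not tested, had counts of 0, 0 and 1 in the Con libraries, of 0, 6.05, 4, 7 and 8.05 in the LPS libraries, of 1, 0, 2, 3 and 2 with STSABs and of 2, 1, 0, 3 and 2 with UVABs. That gives a ratio of LPS to Con of 25.3 (exact 95% interval of 4.12 to 1033, counting error only). Trim43a had 1.01 and 1 counts in LPS replicates 1 and 3, 1 each in UVABs replicates 1, 2 and 5, and 0 elsewhere. Among the other members not tested, Trim58 had 0 counts over Con and 17 over LPS, which is at least 5.70-fold higher. Trim69 had 9 over Con, 23 over LPS, 32 over STSABs and 36 over UVABs, and Trim66 had 20, 15, 4 and 7. The remaining 8 (Trim10, Trim15, Trim40, Trim54, Trim55, Trim63, Trim67 and Trim71) had at most 9 counts over all 18 libraries. Of the muscle markers listed for the COS-box members, 1 of 10 could be tested, Ckm, which did not pass in any comparison.

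Genes that act with TRIM proteins were also compared in LPS against Con, where 40.0% of all tested genes were higher and 43.0% lower. Of the E2 enzymes 13 of 15 rose, Ube2e3 fell by 0.13 on the log2 scale, and Ube2l6, the E2 for the ubiquitin-like Isg15, rose by 4.65 ± 0.09. Of 19 tested nucleic acid sensors and adaptors 15 rose and 2 fell. Irf7, an interferon regulatory factor, rose by 7.03 ± 0.12, Dhx58, a RIG-I relative, by 4.92 ± 0.08 and Ikbke, a kinase of Irf3 and Irf7, by 3.39 ± 0.06. RIG-I itself (Ddx58), the partner of Trim25, rose by 4.57 ± 0.07, and Ifih1, the partner of Trim65, rose by 5.88 ± 0.11. Mavs fell by 1.45 and Sting1 fell by 1.0 on the log2 scale. Of 14 tested partners in Trim28 repression 4 rose (28.6%) and 7 fell (50%), against those 40.0% and 43.0% of all tested genes. Those with the smallest adjusted p went both ways. Hdac1 rose by 1.56 ± 0.04 and Morc3 by 1.62 ± 0.08, while Cbx3, a heterochromatin protein, was at -2.33 ± 0.07 and Chd3, a remodelling helicase, at -1.74 ± 0.08. The 3 tested TRIM genes under other symbols all rose: Pml, of nuclear bodies, by 4.07 ± 0.07, Mefv, the pyrin inflammasome sensor, by 2.61 ± 0.11 and Mid1, a microtubule-linked ligase, by 2.07 ± 0.07.

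STSABs against LPS and UVABs against LPS ask how the groups given apoptotic bodies differed from the inflammatory control. Both comparisons use the same 5 LPS libraries. Apart from Trim43b, Trim30c, Trim21, Trim44 and Trim28 were the members that fell most in both, and Trim46, Trim7, Trim6 and Trim72 led those that rose. Trim43b had a larger fitted fall, but it passed the low-count filter through its LPS libraries alone, which favours a fall. In STSABs 13 of 46 members were higher and 16 lower than in LPS, where 28.4% of all tested genes were higher and 29.0% lower. In UVABs 12 were higher and 16 lower, where 28.6% of all tested genes were higher and 28.8% lower. The members' shares, 28.3% and 34.8% in STSABs and 26.1% and 34.8% in UVABs, were near these backgrounds. The median log2 fold change over the members was -0.08 in both, and that of all tested genes -0.01 in STSABs and 0.00 in UVABs. Summed osteoclast markers ran from 175 to 222 CPM in LPS, 118 to 145 in STSABs and 133 to 164 in UVABs. Most of that sum was Acp5, with means of 155, 90.9 and 98.3 CPM. Ctsk had 38.5, 34.5 and 34.9, and Ocstamp did not fall, with 8.06, 8.78 and 9.07. Dendritic cell markers had 45.9 to 53.6 CPM in LPS, 56.0 to 68.0 in STSABs and 50.6 to 68.3 in UVABs, and mast cell and basophil markers 34.3 to 62.4, 60.5 to 87.7 and 49.6 to 85.4. The part of these markers in the counts was not tested. Without replicate 2 of both AB groups the counts were 12 higher and 16 lower in STSABs, and 13 higher and 18 lower in UVABs. Neutrophil and precursor markers, given above, were higher in both AB groups than in LPS, and their part in these counts was not tested.

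**Figure D3:**
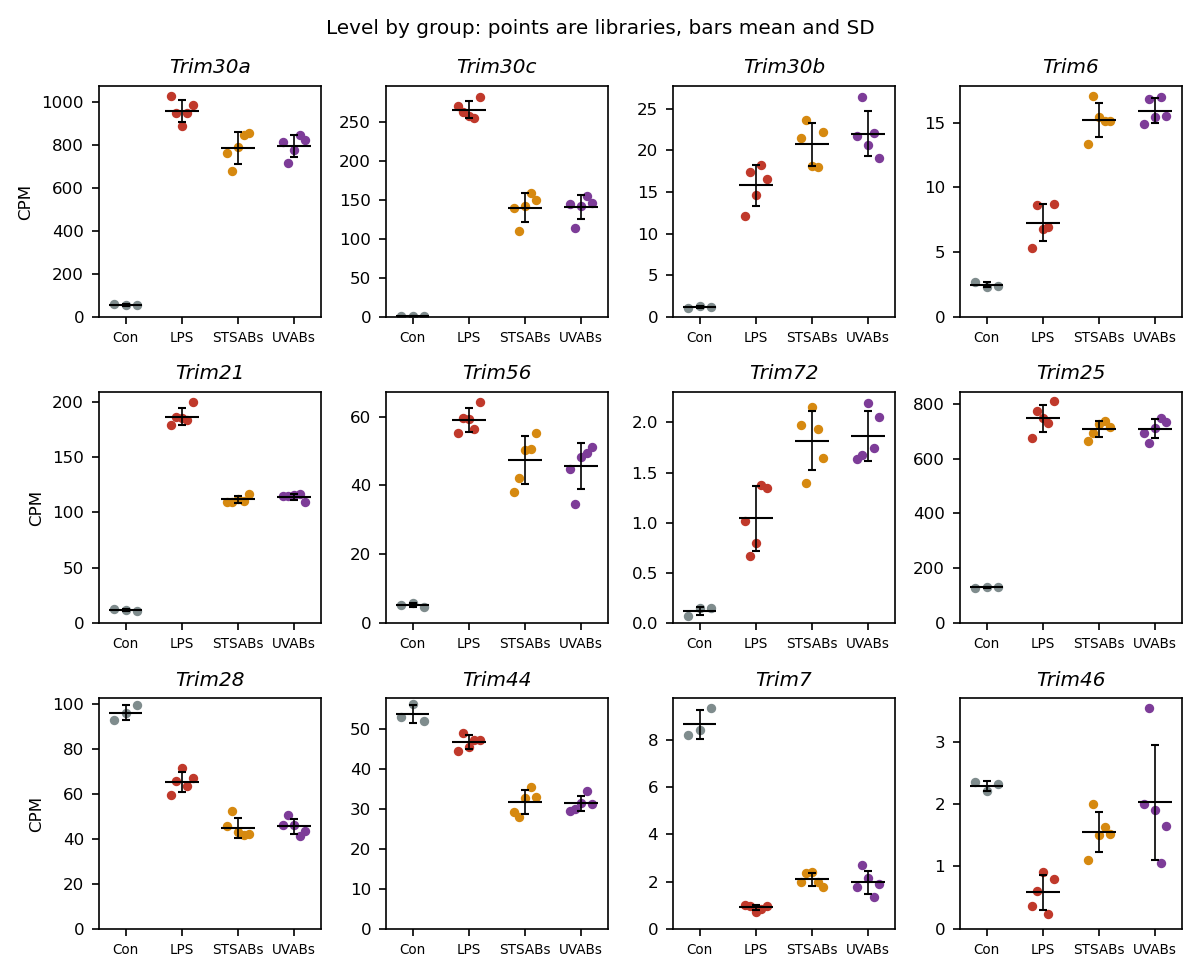
CPM by group for 12 members on linear axes that start at 0, where each point is 1 library, the horizontal line is the mean and the error bar is the SD. Trim30c and Trim21 fall from LPS to both AB groups but stay above Con, Trim6, Trim30b and Trim72 are higher still in the AB groups, Trim25 overlaps between LPS and the AB groups, and Trim7 and Trim46 are higher in the AB groups than in LPS.

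Within the chromosome 7 cluster 6 of 10 members fell in both AB groups, by unequal amounts, where 29.0% of all tested genes were lower in STSABs and 28.8% in UVABs. Trim30c fell by 0.92 ± 0.08 on the log2 scale in STSABs (adjusted p = 4.6e-09, edgeR quasi-likelihood with Benjamini-Hochberg) and by 0.92 ± 0.08 in UVABs, with means ± SD (n = 5 each) of 266 ± 10.8 CPM in LPS, 140.1 ± 18.2 under STSABs and 140.4 ± 15.5 under UVABs. Trim12a changed by -0.49 ± 0.05 and -0.52 ± 0.05, Trim30a by -0.29 ± 0.06 and -0.27 ± 0.06, and Trim30d by -0.30 ± 0.06 and -0.24 ± 0.06. In these 4 genes no AB library reached an LPS library. Trim12c (-0.25 ± 0.08 and -0.26 ± 0.08) fell with overlapping ranges. Trim34a fell by 0.16 in STSABs and by 0.14 in UVABs on the log2 scale, and in UVABs it missed the threshold without LPS replicate 1 (-0.11) or UVABs replicate 4 (-0.12). Trim6 went up by 1.06 ± 0.10 in STSABs and 1.13 ± 0.10 in UVABs, to 15.2 ± 1.33 and 15.9 ± 0.939 CPM from 7.28 ± 1.41 in LPS. Trim30b rose by 0.39 ± 0.11 and 0.48 ± 0.11. Trim34b rose in STSABs (0.59 ± 0.22) and had 0.34 ± 0.23 in UVABs, which did not pass. That rise of Trim34b missed the threshold without LPS replicate 1 or 5 (0.57 and 0.48) or STSABs replicate 2, 3 or 4 (0.51, 0.56 and 0.56). Trim5 did not pass in either comparison, with 0.08 ± 0.09 and 0.15 ± 0.09.

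**Figure D4:**
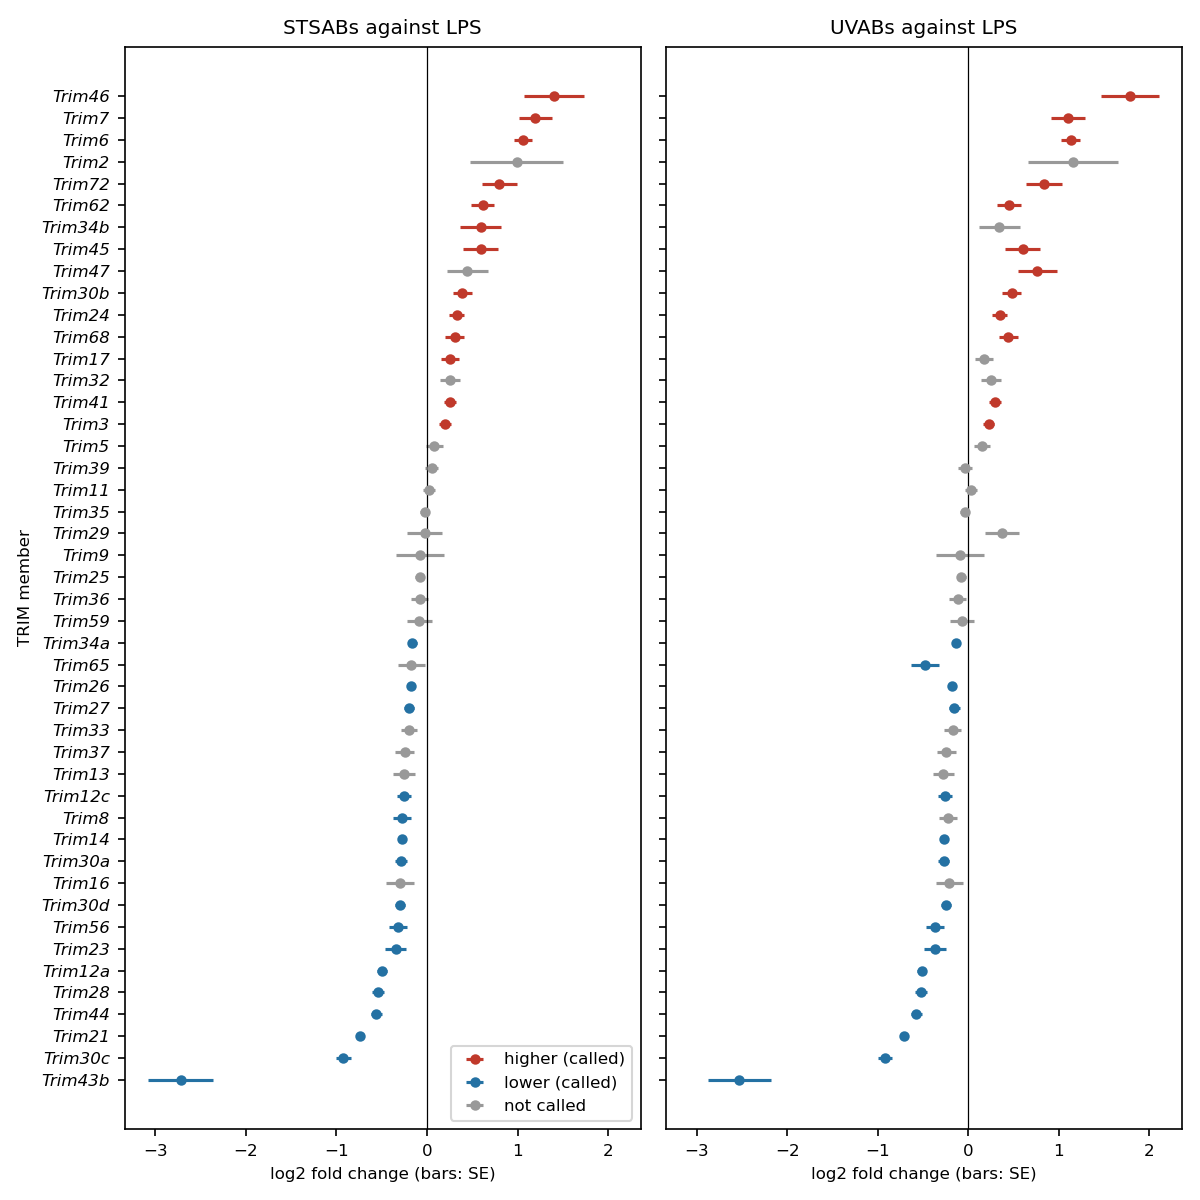
Log2 fold change of STSABs (left) and UVABs (right) against LPS for each tested member, in the order of the left panel, with bars of 1 SE and colours for higher, lower and not called. Both panels share the LPS libraries, and Trim43b (-2.72 and -2.53) and Trim46 (1.40 and 1.78) are their extremes. Trim43b passed the low-count filter through LPS alone.

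Of the 12 tested regulators of innate immune signalling 0 rose and 8 fell (66.7%) in each AB group, with medians of -0.26 in STSABs and -0.27 in UVABs. Of all tested genes 29.0% fell in STSABs and 28.8% in UVABs. The mean ± SD of Trim21 (n = 5 each) was 187 ± 7.72 CPM for LPS, 112 ± 3.13 for STSABs and 114 ± 2.76 for UVABs. Trim21 changed by -0.74 ± 0.04 in STSABs (adjusted p = 7.9e-12, edgeR quasi-likelihood with Benjamini-Hochberg) and by -0.71 ± 0.04 in UVABs. Every AB library lay below every LPS library and far above Con. Trim14 (-0.28 ± 0.04 and -0.27 ± 0.04), Trim26 (-0.18 ± 0.04 and -0.18 ± 0.04) and Trim56 (-0.32 ± 0.10 and -0.37 ± 0.10) fell in both. Trim25 had -0.08 ± 0.05 and -0.08 ± 0.05 and overlapped LPS. It did not pass in either comparison, except in STSABs without LPS replicate 1 (-0.11). Trim27 fell by 0.20 in STSABs and by 0.15 in UVABs on the log2 scale, the latter not without LPS replicate 3 (-0.11) or UVABs replicate 5 (-0.14). Trim23 changed by -0.35 ± 0.12 and -0.37 ± 0.12 with overlapping ranges, and in STSABs missed the threshold without LPS replicate 1 (-0.30), STSABs replicate 1 (-0.29) or STSABs replicate 2 (-0.26). Trim8 fell in STSABs (-0.28 ± 0.10), though not without LPS replicate 3 (-0.22) or STSABs replicate 5 (-0.23). In UVABs Trim8 had -0.22 ± 0.10 and an adjusted p of 0.0508 (edgeR quasi-likelihood with Benjamini-Hochberg). The change passed by DESeq2 (-0.22) and, in the edgeR fit, without any 1 of Con 1, Con 3, LPS 1, LPS 5, STSABs 2, STSABs 5, UVABs 2 or UVABs 5, at -0.22 to -0.28. It also passed without replicate 2 of both AB groups (-0.28) and with unrounded counts (-0.22). Trim65 fell in UVABs (-0.48 ± 0.15), though not without LPS replicate 5 (-0.35), and had -0.17 ± 0.15 in STSABs. The difference between the AB groups in Trim8 and Trim65 did not pass its own test, given below.

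Of the members with the largest falls in LPS, Trim7 and Trim46 rose in both AB groups, Trim47 in UVABs only, and Trim2 and Trim37 in neither. They were chosen by their fall in the same LPS libraries that serve as the reference here, which favours a rise. Trim7 had a mean ± SD of 8.64 ± 0.606 CPM over the 3 Con libraries, 0.909 ± 0.118 over the 5 LPS, 2.10 ± 0.276 over the 5 STSABs and 1.96 ± 0.501 over the 5 UVABs libraries, and rose against LPS by 1.20 ± 0.18 and 1.10 ± 0.19. All AB libraries were above all LPS libraries and below all Con libraries. Trim46 rose by 1.40 ± 0.33 and 1.78 ± 0.32, also without overlap. Trim47 rose in UVABs (0.76 ± 0.21) and had 0.45 ± 0.22 in STSABs, which passed without STSABs replicate 3 (0.56). Trim2 had 0.99 ± 0.51 and 1.16 ± 0.50 on 0 to 5 counts per LPS library and did not pass. It passed without LPS replicate 3 in both comparisons (1.43 and 1.59), and in UVABs without LPS replicate 1 (1.40) or UVABs replicate 2 (1.36). Trim37 was unlike these: it stayed at 2.91 ± 0.270 and 2.92 ± 0.184 CPM, with -0.25 ± 0.11 and -0.24 ± 0.11, and, of the libraries left out in turn, passed only without LPS replicate 1 (-0.30 and -0.29).

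Trim28 and Trim44, which fell in LPS, fell again in the AB groups, with changes of -0.54 ± 0.07 and -0.52 ± 0.07 for Trim28 and of -0.56 ± 0.06 and -0.57 ± 0.06 for Trim44. Their AB libraries were below all LPS libraries, and in both genes the LPS libraries were below all Con libraries. Trim24, of the same structural class as Trim28, rose by 0.33 ± 0.08 and 0.35 ± 0.08 with overlapping ranges. Trim33 had -0.20 ± 0.09 and -0.17 ± 0.09 and did not pass. In STSABs it passed without LPS replicate 3, STSABs replicate 4, STSABs replicate 5 or UVABs replicate 2 (-0.24, -0.23, -0.26 and -0.20), and with replicates 1 to 3 only (-0.29). With a term for replicates 4 and 5 in the fit Trim33 passed in both groups (-0.21 and -0.18). Trim3 rose by 0.20 ± 0.06 and 0.22 ± 0.06, and Trim32 had 0.25 ± 0.11 and 0.25 ± 0.11, with adjusted p values of 0.0514 and 0.0565 (edgeR quasi-likelihood with Benjamini-Hochberg). Leaving out any 1 of 4 libraries brought Trim32 past the threshold in STSABs (LPS 3, STSABs 5, UVABs 2 or UVABs 4, at 0.25 to 0.31), and any 1 of 3 in UVABs (LPS 3, STSABs 2 or UVABs 4, at 0.25 to 0.31). The term for replicates 4 and 5 did so in both (0.25 and 0.25), and in STSABs so did scaling by DESeq2 size factors (0.26), upper-quartile scaling (0.27) and library totals (0.30, and 0.29 in UVABs).

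Trim72 rose by 0.80 ± 0.20 (STSABs) and 0.83 ± 0.20 (UVABs), each time without overlap with LPS. Trim62 rose by 0.62 ± 0.13 and 0.45 ± 0.13, also without overlap. Trim41 (0.25 and 0.30), Trim45 (0.59 and 0.60) and Trim68 (0.31 and 0.44) rose in both. The rise of Trim68 in STSABs missed the threshold without LPS replicate 4 (0.26). Trim17 rose in STSABs (0.25 ± 0.10) and had 0.17 ± 0.10 in UVABs. In STSABs that call was lost without LPS replicate 2, 3 or 4 (0.21, 0.23 and 0.25) or STSABs replicate 1 or 2 (0.21 and 0.24), and in UVABs it was gained without LPS replicate 1 (0.25). Trim13 had -0.25 ± 0.12 and -0.27 ± 0.12 and did not pass. Without LPS replicate 3 it passed in both (-0.31 and -0.33), and likewise without STSABs replicate 3 (-0.36 and -0.28), and in UVABs without Con replicate 1, STSABs replicate 2 or UVABs replicate 3 (-0.27, -0.27 and -0.31). Trim16 (-0.30 ± 0.15 and -0.21 ± 0.15) passed in UVABs without UVABs replicate 2 (-0.35). Trim29 (-0.03 ± 0.19 and 0.37 ± 0.19) passed in UVABs without LPS replicate 3 (0.47) or UVABs replicate 4 (0.49). Trim43b fell by 6.58-fold in STSABs and 5.77-fold in UVABs, on 2 to 4 and 0 to 5 counts per library. It passed the low-count filter through LPS alone, so the filter favoured a fall. Trim58 had 17 counts over LPS and 1 over STSABs, a ratio of 17.4 (exact 95% interval of 2.73 to 728, counting error only).

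The genes that act with the family were also compared in the AB groups, against the same LPS libraries. Of all tested genes 28.4% were higher and 29.0% lower in STSABs, and 28.6% and 28.8% in UVABs. Of 15 E2 enzymes 0 rose and 8 fell in each AB group, led by Ube2v2, a partner subunit of Ube2n, with -0.74 ± 0.07 in STSABs and -0.94 ± 0.07 in UVABs. Of 19 sensors and adaptors 3 rose and 10 fell in STSABs, and 3 rose and 9 fell in UVABs. Ifih1 changed by -0.60 ± 0.07 and -0.59 ± 0.07, and Ikbkg, the regulatory subunit of the IkB kinase, by -0.47 ± 0.05 and -0.44 ± 0.05. The 3 that rose in both were Mavs (0.40 and 0.47), Sting1 (0.34 and 0.34) and Ikbke (0.13 and 0.14). Of 14 partners in Trim28 repression 5 rose and 5 fell in each (35.7% each way). Chd3 was at 1.12 ± 0.08 and 1.11 ± 0.08 and Setdb1, the histone methyltransferase that Trim28 recruits, at -0.28 ± 0.06 and -0.28 ± 0.06. Pml, Mefv and Mid1 all fell, from -0.15 to -0.35.

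UVABs against STSABs asks whether the way the bodies were induced made a difference. No member was called higher or lower by edgeR's quasi-likelihood test, where 0% of all 12465 tested genes were called higher and 0% lower. The smallest Benjamini-Hochberg adjusted p among members in that test was 1. DESeq2, limma-voom and a fit of these 10 libraries with the replicate number as a block called 0 members each. At an unadjusted p under 0.05 there was 1 member, Trim29, with 0.40 ± 0.19, that is 2.17% of the members, where 1.59% of all tested genes were. Trim29 is named for that count, after its values were seen. Its mean ± SD (n = 5 each) was 1.76 ± 0.375 CPM for STSABs and 2.33 ± 0.587 for UVABs, with overlapping libraries.

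The intervals of the difference in the fit of all libraries, without pairing, show what these libraries could resolve. They were narrow for members with many counts: 95% intervals of the log2 fold change were -0.07 to 0.09 for Trim14, -0.09 to 0.09 for Trim26, -0.06 to 0.12 for Trim21, -0.10 to 0.11 for Trim25 and -0.12 to 0.15 for Trim30a. For Trim30c the interval was -0.17 to 0.17 and for Trim6 -0.12 to 0.26. They were wide for scarce members, such as -0.72 to 1.05 for Trim2, -0.90 to 1.28 for Trim43b and -0.16 to 0.92 for Trim46. For Trim65 the difference was -0.30 ± 0.16 (-0.63 to 0.02) and for Trim8 0.05 ± 0.10 (-0.15 to 0.25). The pairing by library number used next was taken from these same data and is not stated by the labels. Within the 5 pairs of libraries with the same number, the fit with the replicate block gave intervals of -0.051 to 0.072 for Trim14, -0.067 to 0.061 for Trim26, -0.042 to 0.10 for Trim21, -0.060 to 0.061 for Trim25, -0.047 to 0.079 for Trim30a, -0.062 to 0.069 for Trim30c, -0.059 to 0.19 for Trim6, -0.084 to 0.18 for Trim8 and -0.65 to 0.032 for Trim65. Trim65 and Trim62 were lower in UVABs in all 5 pairs, with block changes of -0.31 and -0.17, and neither was called (Benjamini-Hochberg adjusted p = 0.997 for each, edgeR quasi-likelihood). These 2 were 4.35% of the 46 members, and 5.66% of all tested genes went 1 way in all 5 pairs. Over the 46 members the differences ran from -0.30 in Trim65 to 0.40 in Trim29, with a median of 0.01. Both AB libraries numbered 2 were the lowest of their group in Trim12c, Trim13, Trim30a, Trim30c, Trim30d, Trim33, Trim35, Trim36 and Trim59. For Trim36 they had 47.1 and 49.9 CPM, where the other 8 AB libraries had 63.8 to 73.1. In other members they were the highest of their group, such as Trim46 (2.01 and 3.53 CPM), Trim47 (3.34 and 3.17), Trim30b (23.7 and 26.5) and Trim28 (52.5 and 50.6).

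Against the mock group, the AB groups had high levels of the chromosome 7 cluster, Trim21, Trim56 and Trim25 and low levels of Trim37, Trim2 and Trim47. Here too the low-count filter favoured a fall of Trim2, which passed it through Con alone. These comparisons use the same 3 Con libraries as LPS against Con. In STSABs 21 members were higher and 17 lower, where 40.0% of all tested genes were higher and 42.6% lower. In UVABs 21 were higher and 18 lower, where 40.2% of all tested genes were higher and 42.4% lower. With library totals the counts were 18 higher and 26 lower in each, and with upper-quartile scaling 20 higher and 22 lower in STSABs and 19 and 21 in UVABs. All 10 cluster members were called higher than Con in both, Trim5 among them with 0.24 ± 0.10 and 0.31 ± 0.10. That call of Trim5 was lost in STSABs without Con replicate 1 or 2 (0.13 and 0.24) or STSABs replicate 2, 4 or 5 (0.23, 0.23 and 0.21), and in UVABs without Con replicate 1 (0.20). In STSABs it was also lost with no low-count filter (0.22), with a term for replicates 4 and 5 (0.18), with replicates 1 to 3 only (0.20) and with upper-quartile scaling (-0.027, adjusted p = 0.809 in the edgeR quasi-likelihood test with Benjamini-Hochberg). In UVABs replicates 1 to 3 only (0.20) and upper-quartile scaling (0.039) lost it too. With library totals Trim5 was at -0.46 in STSABs and -0.39 in UVABs. Trim30c stood 6.68 ± 0.15 above Con in STSABs and 6.68 ± 0.15 in UVABs, and Trim37 changed by -2.70 ± 0.09 and -2.70 ± 0.09. Trim62, not called in LPS, was higher than Con in both (0.74 ± 0.14 and 0.57 ± 0.14), but was at 0.04 and -0.13 with library totals, and in UVABs it missed the threshold with upper-quartile scaling (0.30). Trim24 (-0.14 ± 0.09 and -0.12 ± 0.09), Trim41 (-0.11 ± 0.07 and -0.07 ± 0.07) and Trim46 (-0.56 ± 0.27 and -0.18 ± 0.26), which fell in LPS, did not pass against Con. With library totals all 3 were lower than Con in both, by 0.77 to 1.26 on the log2 scale. With upper-quartile scaling Trim24 (-0.41 and -0.39) and Trim41 (-0.38 and -0.34) were lower in both, and Trim46 in STSABs (-0.83). Trim41 passed in STSABs without STSABs replicate 2 (-0.16). Trim46 passed in STSABs without LPS replicate 4, STSABs replicate 2, UVABs replicate 2 or UVABs replicate 4 (-0.56, -0.67, -0.56 and -0.56). Trim23 was lower in both (-0.32 ± 0.13 and -0.34 ± 0.13), though not without Con replicate 1 or 2 (-0.29 and -0.28 in STSABs, -0.31 and -0.30 in UVABs), STSABs replicate 1 or 2 (-0.26 and -0.23) or, for UVABs, UVABs replicate 1 (-0.29). Trim39 was lower in UVABs (-0.24 ± 0.08), though not without Con replicate 1 (-0.18).

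Values that are not whole numbers were frequent in the family. They occurred in 14 of 60 members (23.3%), where 2017 of all 16909 genes (11.9%) had any. In 8 members they occurred in all 18 libraries: Trim30a, Trim30b, Trim30d, Trim34a, Trim34b, Trim12c, Trim5 and Trim9. Trim17 had them in 17 libraries, Trim12a in 16, Trim13 in 14, Trim43b in 3, Trim43c in 2 and Trim43a in 1. Of these 14 members 12 were tested, and the 14 held 41.6% of the members' counts. Trim30c, Trim21, Trim25 and Trim56 had whole values only. Without the 14 members, 10 were higher and 20 lower in LPS than in Con, against 20 and 20 with all 46 tested members. Of all tested genes 40.0% were higher and 43.0% lower. The 10 whole-valued members that rose included Trim30c, Trim21, Trim56, Trim25, Trim14 and Trim26.

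Sequence shared with other genes was measured on GENCODE M21 transcripts (GRCm38), as the share of 100-base windows of a member's transcripts that occur unchanged in a transcript of another gene. Of the 14 members with values that are not whole 13 shared windows, with a median of 9.88% and a range from 0 to 39%. Of the other 46 members 15 did, with a median of 0 and a maximum of 29.9%. Trim34a shared 39% of its windows, 21.0% with Trim34b, and Trim34b shared 30.5%, all with Trim34a. Trim5 shared 11.7% and Trim12c 8.05%, each mainly with the other. Trim30a shared 4.41% with Trim30d, and Trim30d 4.57% with Trim30a. Trim17 shared 16.3%, with the histone gene Hist3h2a. Trim30b shared none and Trim9 0.367%, yet their values were not whole in all libraries. Trim14 shared 29.9%, mostly with Nans, and Trim72 19.7%, and their values were whole. How reads common to several genes were split was not given in the sources used here, so the levels of members that share windows are uncertain, and overlapping or antisense genes cannot be told apart without the strand setting.

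**Figure D5:**
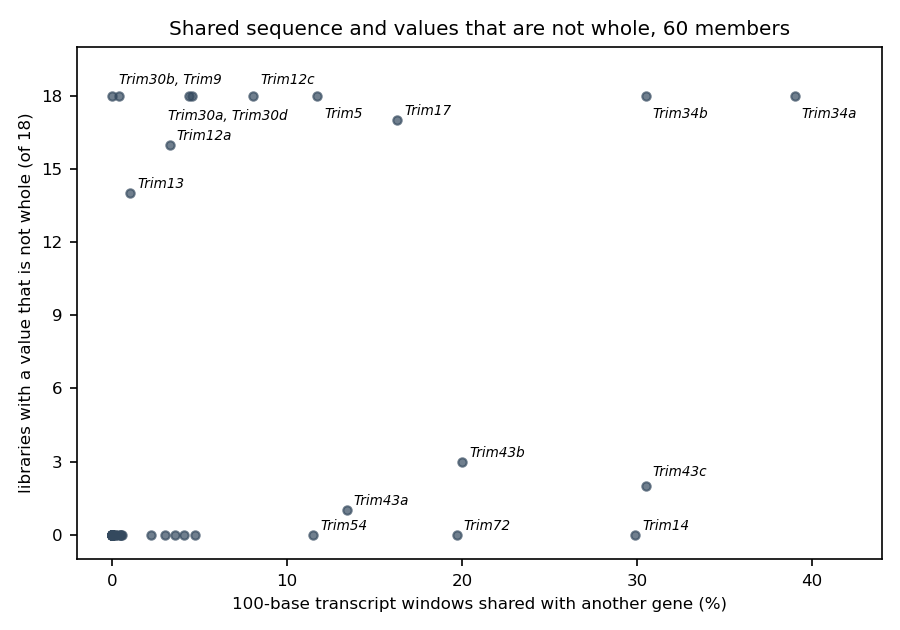
Share of 100-base transcript windows found in another gene (horizontal axis, percent) against the number of libraries in which a member's value is not whole (vertical axis, of 18), with 1 point per member. Trim34a and Trim34b lie at the upper right, Trim30b and Trim9 at the upper left, and Trim14 and Trim72 at the lower right, so neither measure fixes the other.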

How the data were processed

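Poly(A) RNA was sequenced from 18 libraries of mouse bone marrow macrophages. The authors deposited 1 table of estimated counts per gene symbol, not normalized. The submitters' processing notes name HISAT2 and the mouse build mm39, per the labels, while the counting tool, annotation, strand setting and the handling of reads common to several genes were not given in the sources used here. Of all deposited values 6.35% are not whole, so the estimated counts were rounded before testing. Library totals were alike (17588400 to 18675300), and counting error limits precision for members with few counts. The exact intervals of count ratios and the floors cover counting error only, whereas intervals of log2 fold changes come from the edgeR fit and include the spread between libraries.

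Genes were kept by edgeR's filterByExpr (12465 of 16909 genes, 99.97% of counts). Levels are CPM over library sizes scaled by TMM. All 18 libraries entered 1 fit of group means, tested with edgeR 4.0.16 (glmQLFit, glmQLFTest; R 4.3.3) and adjusted by Benjamini-Hochberg over all tested genes at 0.05. DESeq2 1.42.0, limma-voom 3.58.1, other scalings and filters, unrounded counts, the replicate block and leaving out each library were alternatives. A fit of only the compared groups with the replicate block was added after seeing the data.

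Members, lists and named genes were chosen with earlier results of these data known. Values in every library are given for a panel of 30 members, for the 5 members with the largest called change in each direction of a comparison where the higher group had 1 CPM or more, and for members with values that are not whole. Partner lists name at most 4 genes each by smallest adjusted p. Outside that rule, Ifih1, Mavs, Sting1, Ikbke, Ube2e3 and Setdb1 were named after their values were seen.

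The labels give groups the same replicate numbers. After subtraction of group means, same-numbered libraries of STSABs and UVABs correlated at 0.116 to 0.54 over genes in all 5 pairs. Those numbers were taken as pairs on that ground, from these same data, and the labels state no pairing or shared batch. The largest value, 0.54, was of replicate 2, and replicate 5 (0.137) did not correlate best with its own number. No other comparison had every pair above 0.1. In LPS against Con replicates 1 to 3 each correlated best with their own number, at 0.0193 to 0.113. No 2 libraries of a group agreed within sampling noise. Markers of the other cell types a marrow culture could hold were summed per library. B cell markers reached at most 6.26 CPM. Among the osteoclast markers, mean Acp5 went from 32.7 CPM in Con to 155 in LPS, and Ocstamp the other way, from 14.0 to 8.06. In Con, LPS, STSABs and UVABs, dendritic cell markers ran from 30.1 to 34.5, 45.9 to 53.6, 56.0 to 68.0 and 50.6 to 68.3 CPM, mast cell and basophil markers from 50.6 to 58.9, 34.3 to 62.4, 60.5 to 87.7 and 49.6 to 85.4, stromal markers from 1.38 to 1.88, 5.34 to 6.72, 2.67 to 6.29 and 3.74 to 6.52, and osteoclast markers from 69.6 to 80.2, 175 to 222, 118 to 145 and 133 to 164.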

Additional observations from a re-analysis of the deposited data

Results flagged for a closer look

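A library stood apart from the other 4 of its group, by the gap to its neighbour over the range of the group, in 8 of 138 groups of 5 libraries tested. Chance flags about 1 in 20 such groups. Trim36, which rose in LPS, was low in replicate 2 of both AB groups, at 47.1 CPM in STSABs (next lowest 65.8) and 49.9 in UVABs (next lowest 63.8). Trim35 was also low in UVABs replicate 2, at 140 CPM against 154 in the next library. The interferon-linked Trim34a was high in LPS replicate 1, at 137 CPM (next 128), and so was Trim59, at 8.74 CPM (next 6.73). Trim26 reached 192 CPM in LPS replicate 3, where the next library had 181. Trim39 reached 15.9 CPM in UVABs replicate 1 (next 13.1). Trim9, whose deposited values are not whole, was at 0.413 CPM in STSABs replicate 1 (next lowest 1.24).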

How the results depend on the processing

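Calls held in every alternative run for 36 of the 40 members called in LPS against Con, 21 of 29 in STSABs against LPS, 23 of 28 in UVABs against LPS, 34 of 38 in STSABs against Con and 34 of 39 in UVABs against Con. Those that did not were Trim13, Trim36, Trim39 and Trim44; Trim8, Trim17, Trim23, Trim27, Trim34a, Trim34b, Trim45 and Trim68; Trim27, Trim34a, Trim45, Trim47 and Trim65; Trim5, Trim23, Trim36 and Trim62; and the same 4 with Trim39. Leaving out the members with values that are not whole gave 10 higher in LPS against Con, 10 lower in STSABs against LPS, 10 lower in UVABs against LPS, 11 higher in STSABs against Con and 11 higher in UVABs against Con, since fewer members were counted. The count lower in LPS against Con stayed at 20. With library totals 26 members were lower in STSABs against Con, and of all genes called in LPS against Con 21.2% were higher, against 36.0% with upper-quartile scaling and 48.2% with TMM.

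Directions turned under scaling only. With library totals the log2 fold changes against Con were, for Trim13, -0.32 in LPS, -0.52 in STSABs and -0.55 in UVABs; for Trim5 -0.59, -0.46 and -0.39; for Trim45 -0.54 in STSABs and -0.54 in UVABs; for Trim62 -0.62 in LPS and -0.13 in UVABs; and in LPS -0.71 for Trim23, -0.70 for Trim33 and -0.70 for Trim9. Upper-quartile scaling turned Trim33 in LPS (-0.24) and Trim5 in STSABs against Con (-0.027). With replicates 1 to 3 of each group only, calls against LPS were lost for Trim8, Trim17, Trim27, Trim34a, Trim34b, Trim45 and Trim68 in STSABs and for Trim27, Trim34a, Trim45, Trim47 and Trim65 in UVABs. The cause was not tested.

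With the replicate block, members higher and lower were 20 and 20 in LPS against Con, 14 and 17 in STSABs against LPS, 13 and 18 in UVABs against LPS, 0 and 0 in UVABs against STSABs, 20 and 18 in STSABs against Con, and 21 and 19 in UVABs against Con. Outside UVABs against STSABs the libraries share only a number, and there the pairing was taken from correlations in these same data. The block brought past the threshold Trim33 (-0.21) and Trim32 (0.25) in STSABs against LPS, and Trim33 (-0.18), Trim32 (0.25) and Trim8 (-0.22) in UVABs against LPS, and Trim33 in STSABs and UVABs against Con (-0.25 and -0.23), and it lost Trim5 in STSABs against Con (0.19, adjusted p = 0.109 in the edgeR quasi-likelihood test with Benjamini-Hochberg). In the fit of the 2 compared groups with the block Trim5 (0.21) and Trim39 (-0.19) were also lost in UVABs against Con and Trim27 (-0.14) in UVABs against LPS, and Trim33 in STSABs (-0.19) and Trim8 in UVABs (-0.21) passed against LPS. Leaving out each library in turn gave 20 to 22 higher and 19 to 21 lower in LPS against Con, 11 to 14 and 15 to 17 in STSABs against LPS, 12 to 15 and 15 to 18 in UVABs against LPS, 0 in UVABs against STSABs, 20 to 22 and 16 to 18 in STSABs against Con, and 21 to 22 and 16 to 18 in UVABs against Con. Members with under 1 CPM, such as Trim2, Trim34b and Trim43b in some groups, are limited by depth.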
